A study of Mus musculus with 4 samples.

Results

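CTCF occupancy of proliferating preosteoblasts (day 0) was compared with that of the same cell line while it deposited matrix (day 9). On chromosomes 1 to 19 the day 0 list held 65943 peaks and the day 9 list 41808, and merging peaks that shared at least 1 bp gave 67735 regions. A region was called kept when both lists had a peak in it, and day 0 only or day 9 only otherwise. The 3 deposited lists of the series held 156246 peaks in all, and the list of mineralizing cells (day 28) defined no group here. Each stage is 1 list, which stands for 2 biological repeats, so no value below has a replicate error and no p-value is given. Intervals in brackets are 95% Wilson intervals and cover counting error only.

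The cells were MC3T3-E1 subclone 4, a preosteoblast line from mouse calvaria (strain C57BL/6), at passages 28 to 31. Osteogenic medium held 280 µM ascorbic acid, which allows collagen to be secreted, and 10 mM beta-glycerophosphate, a phosphate donor. The same antibody lot was used at both days, and the input libraries came from day 9 cells. As a single subclone of an immortal line, the cells stand for 1 clone and not for bone in an animal.

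CTCF is a zinc-finger protein that binds a long DNA motif, blocks enhancers at insulators and, with the cohesin ring, holds the feet of chromatin loops. Most of its sites are bound in many cell types, while a minority are bound in some tissues or states only. When preosteoblasts stop dividing and start to lay down collagen, they switch between transcription programmes, and the comparison asks at which sites CTCF was found on either side of that switch.

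The score deposited for a peak grows with its enrichment and with sequencing depth. It was taken to be −10 log10 of the caller's p-value, with a lowest deposited value of 100 at day 9 and 100.01 at day 0. Values of 3100 and above were treated as 1 saturated class. The read depth behind the lists is unknown, so a score ranks a peak within its own list. Where scores of different days are set side by side, a like number is not a like strength. The day 0 list covered 43.5 Mb and had a median score of 556 (quartiles 205 and 2116). The day 9 list covered 24.4 Mb and had a median score of 507 (191 and 1640). At saturation stood 12089 day 0 peaks (18.3%) and 4805 day 9 peaks (11.5%). No gene, promoter or motif was assigned to a region, because the genome tables at hand are of another build. Positions are given in mm9, counted from 1.

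Most regions that CTCF occupied during matrix deposition had been occupied during proliferation. Kept regions numbered 38958 (57.5% of all regions, 57.1 to 57.9). Day 0 only regions numbered 26842, a share of 39.6% (39.3 to 39.997). Day 9 only regions numbered 1935, a share of 2.86% (2.73 to 2.98). With the lists as deposited, day 0 only regions were thus 13.9 times as many as day 9 only regions. Kept regions were nearly always simple: 38006 of them (97.6%) joined exactly 1 day 0 peak to 1 day 9 peak. In another 810 regions a single day 0 peak spanned several day 9 peaks, and the opposite was seen in 81.

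At equal list size the counts of day 0 only and day 9 only regions were close, which lists of like length nearly force. Keeping only the 42774 highest scores of either list, as many as the whole day 9 list holds, left 47590 regions on chromosomes 1 to 19. Of these, 34995 were kept (73.5%, 73.1 to 73.9), 6688 were day 0 only (14.1%, 13.7 to 14.4) and 5907 were day 9 only (12.4%, 12.1 to 12.7). The ratio of day 0 only to day 9 only regions was then 1.13. Where lists of like length join mostly 1 peak to 1, this ratio lies near 1 whatever sites they hold. It therefore does not show that losses and gains were in balance. The limit fell at a day 0 score of 314.53, and the first day 0 peak left out had a score of 314.52. Day 9 lost no peak. Of the 5907 day 9 only regions at equal list size, 3972 (67.2%) held a deposited day 0 peak under that limit, and the other 1935 were the day 9 only regions of the full lists. As the day 9 list was not cut, none of the 6688 day 0 only regions could hold a day 9 peak in the full list.

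**Figure D1:**
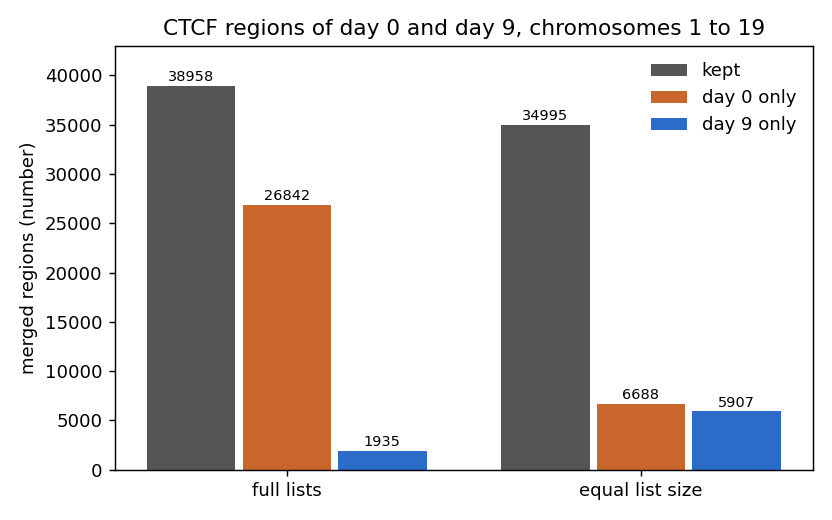
Number of merged CTCF regions (vertical axis) that were kept, day 0 only or day 9 only on chromosomes 1 to 19, for the full lists and for lists of equal size. The day 0 only bar falls from 26842 to 6688 and the day 9 only bar rises from 1935 to 5907, while the kept bar changes little (38958 and 34995).

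Whether a day 0 site was found again during matrix deposition followed its score. Of all day 0 peaks, 59.3% (58.9 to 59.7) overlapped a day 9 peak. Among day 0 peaks scoring 100 to under 150, 9.25% (8.69 to 9.83) were found again. The share was 25.4% (24.4 to 26.4) at scores of 200 to under 300 and 45.5% (44.4 to 46.5) at 300 to under 500. It reached 74.7% (73.8 to 75.6) at 500 to under 1000 and 94.8% (94.3 to 95.2) at 1000 to under 2000. Of the 12089 saturated day 0 peaks, 12084 were found again (99.96%, 99.90 to 99.98).

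In the other direction the dependence was shallow. Even the weakest day 9 peaks, those scoring 100 to under 150, were found at day 0 in 84.8% of cases (84.0 to 85.6). At 300 to under 500 the share was 97.5% (96.99 to 97.9), and over all day 9 peaks it was 95.4% (95.2 to 95.6). All 4805 saturated day 9 peaks had a day 0 peak. At equal list size the weakest class of day 9 peaks was found at day 0 in 55.1% (53.9 to 56.2). The day 0 peaks at 500 to under 1000 kept their 74.7%, since no peak of that strength was removed.

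**Figure D2:**
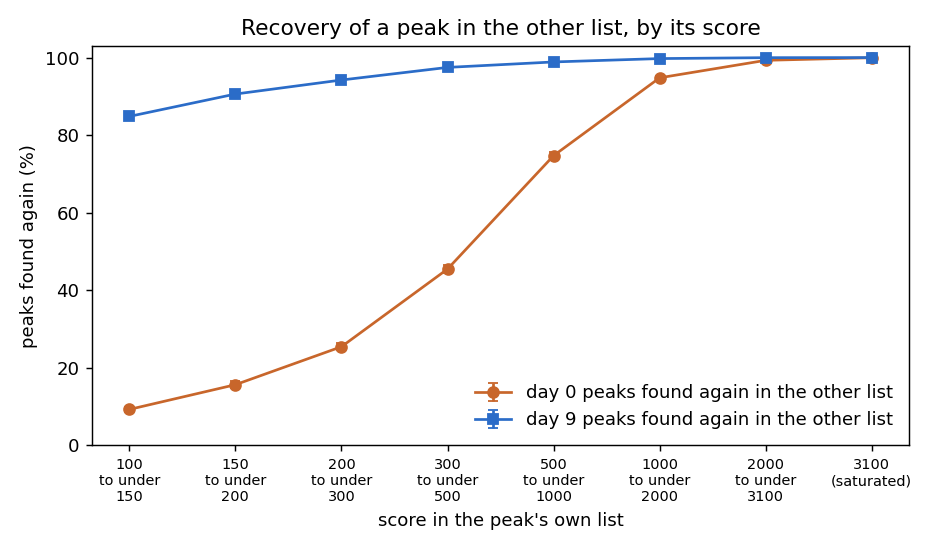
Share of peaks found again in the other list (vertical axis, percent) against the peak's score in its own list (horizontal axis, 8 classes of score), for the full lists; bars are 95% Wilson intervals and are mostly smaller than the points. Day 0 peaks climb from 9.25% to 99.96%, and day 9 peaks from 84.8% to 100%.

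The scores of kept regions show how the lists relate. Kept regions with a day 0 score of 300 to under 500 had a median day 9 score of 163 (quartiles 127 and 236), close to the lowest score of the day 9 list, and 42.7% of them scored under 150. A day 0 score of 1000 to under 2000 went with a median day 9 score of 473 (283 and 731), and 5.94% of those regions scored under 150. Saturated day 0 sites had a median day 9 score of 2643 (1784 and 3100). Across the 26455 kept regions with 1 peak per list and no saturation, the day 0 score was the higher number in 92.0%. Depth and enrichment cannot be told apart in these numbers.

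Day 0 only regions were mainly weak peaks with a tail of strong ones. Their median score was 192 (quartiles 134 and 314), against 1607 (645 and 3100) for the day 0 scores of kept regions. Of the 26842 regions, 14074 (52.4%) scored under 200, 2830 (10.5%) scored at least 500, and 459 scored at least 1000. Only 5 were saturated. The first of these lay on chromosome 4 at 33037134 to 33038274 (1141 bp). It stood in a stretch of 151 kb without a listed day 9 peak, and a day 28 peak with a score of 660.8 overlapped it. On chromosome 18 the region at 23143529 to 23144181 lay in a day 9 gap of 891 kb, and its day 28 score was 195. The region on chromosome 12 at 5417062 to 5417634 lay in the widest such gap, 2377 kb, and its day 28 score was 292.5. The saturated regions on chromosome 8 (17664173 to 17664779) and chromosome 2 (96548043 to 96548458) had no peak at day 28 either. So 3 of these 5 strong proliferation sites, unlisted at day 9, were listed in mineralizing cells, each at an unsaturated score. In the day 9 list, 1 to 3 peak numbers were missing in the interval around each of the 5. A peak called but not listed there is therefore possible, as described with the peak numbers below.

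The next 3 day 0 only regions by score, which like the saturated ones stayed at equal list size, each had a day 28 peak. The region on chromosome 10 at 105012146 to 105012801 scored 3085.5 at day 0, and its day 28 score was 676. A region on chromosome 19 at 11676338 to 11677014 scored 2888 at day 0 and 121 at day 28, and the nearest day 9 peak was 5582 bp away. On chromosome 8, the region at 121503758 to 121504219 scored 2874 at day 0 and 150 at day 28. The median day 28 score was 662 (quartiles 213 and 2383), so 1 of these stood near it within its list and the others lay under the lower quartile.

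Day 9 only regions were few, and most stood low within the day 9 list. Their median score was 142 (quartiles 115 and 201), against 573 (211 and 1765) for the day 9 scores of kept regions. Of the 1935 regions, 1448 (74.8%) scored under 200, 87 (4.50%) scored at least 500 and 17 at least 1000, and none was saturated. The strongest scored 2616 and lay on chromosome 9 at 49466329 to 49466899. The nearest day 0 peak was 3986 bp away, and a saturated day 28 peak overlapped the region. The second, on chromosome 6 at 125826716 to 125827312 (score 1937), had no day 28 peak. The third, on chromosome 19 at 38553554 to 38554071 (score 1828), stood 19706 bp from the nearest day 0 peak and had a day 28 score of 2508. On chromosome 8 the region at 120074297 to 120074936 scored 1789 at day 9 and 2085 at day 28. The region on chromosome 4 at 117613653 to 117614218 scored 1539 at day 9 and 601.5 at day 28. Hence 4 of the 5 strongest sites listed at matrix deposition and not at proliferation were also listed in mineralizing cells. In the day 0 list, 1 or 2 peak numbers were missing in the interval around each of the 5.

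At equal list size the strongest day 9 only regions each held a deposited day 0 peak. The limit of 314.53 on day 0 scores fixes in advance that such a peak scores low. On chromosome 17 at 4625946 to 4626806 a saturated day 9 peak met a deposited day 0 peak with a score of 205, and the day 28 score was 223. On chromosome 6 at 97807570 to 97808322 the day 9 peak was saturated, the day 0 score was 277 and the day 28 peak was saturated. On chromosome 1 at 181858802 to 181859511 the day 9 peak was saturated, the day 0 score was 236 and the day 28 score 2662. Within the day 28 list, the first of these stood under the median of 662 and the others stood above the upper quartile of 2383.

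High-scoring day 9 only regions fell into 2 kinds by the width of the peak. The split was made after their values were seen: a peak was called narrow when it was under the 5th percentile of width of kept day 9 peaks in the same class of score. Of the 87 day 9 only regions scoring at least 500, 21 (24.1%) were narrow. A day 28 peak overlapped 2 of these 21 (9.52%, 2.65 to 28.9). Of the 66 others, 63 held a day 28 peak (95.5%, 87.5 to 98.4). Among day 0 only regions of at least 500, 263 of 2830 (9.29%) were narrow by the same rule. Of these, 29.7% (24.5 to 35.4) held a day 28 peak, against 51.0% (49.1 to 53.0) of the other 2567. What sets narrow peaks apart was not tested, since reads and input were not analysed here.

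Peak names made it possible to ask whether a site missing from a list had been numbered there. Peak numbers ran in order of position in both lists, with 0 inversions, but 28618 numbers of the whole day 0 list and 20784 of the whole day 9 list were not listed. Why numbers are missing is not given in the sources used here. A number missing between the listed peaks that flank a region was taken to be a peak that was called in that interval and not listed, and what follows rests on that reading. Of the 1935 day 9 only regions, 537 (27.8%, 25.8 to 29.8) lay between day 0 peaks with consecutive numbers, so that no number was missing there. Of 26805 day 0 only regions with a day 9 peak on either side, 7137 (26.6%, 26.1 to 27.2) lay between consecutive day 9 numbers. Over all intervals between listed peaks, no number was missing in 70.7% at day 0 and 67.8% at day 9. The share was smaller for strong regions: 16 of 87 day 9 only regions (18.4%, 11.6 to 27.8) and 383 of 2828 day 0 only regions (13.5%, 12.3 to 14.9) scoring at least 500. Strong regions also lay in longer intervals. Medians were 61.4 kb against 36.7 kb for all day 9 only regions, and 92.1 kb against 60.9 kb for day 0 only regions. Whether the smaller share goes with interval length was not tested.

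Unlisted numbers were more frequent around regions of 1 list than in intervals of like length. In day 0 intervals of 20 to 50 kb, 71.1% of day 9 only regions had an unlisted number beside them, against 41.7% of all such intervals. In intervals of 5 to 10 kb the values were 60.1% and 22.3%, and in those over 100 kb they were 82.96% and 60.1%. Day 0 only regions showed the same in the day 9 list: 70.3% against 40.3% at 20 to 50 kb, and 55.9% against 18.9% at 5 to 10 kb. Neighbouring day 0 only regions often shared an interval and were then each counted. Where in the interval an unlisted peak lay is not given, so these values do not place it on the region.

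Kept sites were centred on the same places at both days, and their listed peaks were narrower in the day 9 list. In the 38006 kept regions with 1 peak per list, the midpoints of the peaks lay a median of 37.5 bp apart (quartiles 16.5 and 73), and 94.4% lay within 200 bp. The day 0 peak had a median width of 643 bp (504 and 863) and the day 9 peak 530 bp (427 and 683). Within a region the day 9 peak was narrower by a median of 102 bp, a difference of -102 bp (quartiles -209 and -24). The day 0 peak was the wider in 81.4% of regions. Sorted by score in their own list, day 0 and day 9 peaks differed less. Median widths were 604 and 601 bp at 1000 to under 2000, and 670 bp at both days at 2000 to under 3100. They were 428 and 403 bp in the weakest class and 829 and 768 bp at saturation. Whether the narrower day 9 peaks go with the lower day 9 scores was not tested. Overlaps were rarely marginal: 6 of these regions shared under 50% of the shorter peak, and in 66.5% the shorter peak lay wholly inside the longer. The smallest overlap was 24 bp, while 99 regions of 1 list lay within 50 bp of a peak of the other list and were not joined.

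The order of kept sites was broadly held between the days. Scores were turned into percentiles within each list over the 26455 kept regions with 1 peak per list and no saturation. Spearman's rho across these regions was 0.71, as a description, since the regions of a list share its libraries. With saturated regions counted as ties it was 0.86. The difference of day 9 minus day 0 percentile had quartiles of -12.8 and 12.3, and 41.8% of regions stayed within 10 points. Of the 2645 regions in the highest 10% at day 0, 1340 were also in the highest 10% at day 9 and 4 had dropped to the lowest 10%. The lowest 10% at day 0 held as many regions. Of these, 801 were also in the lowest 10% at day 9 and 19 reached the highest 10%, so the order was held less closely there. Moves over 50 points were made by 492 regions upward (1.86%) and 448 downward (1.69%).

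**Figure D3:**
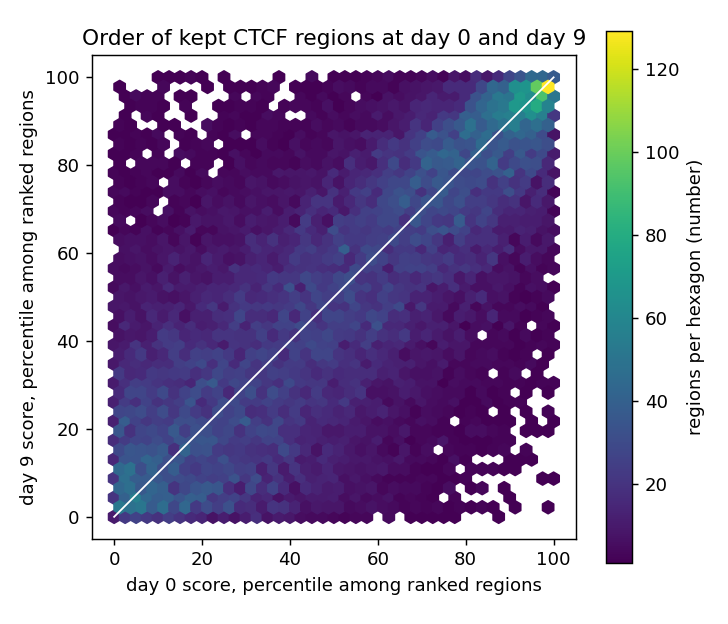
Percentile of the day 9 score (vertical axis) against percentile of the day 0 score (horizontal axis) for 26455 kept regions, with colour for the number of regions per hexagon and a white line of equal rank. The cloud follows the line (rho 0.71), is tightest in the upper right corner, and thins out toward the corners of large rises and falls.

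The largest rises in rank lay on 5 chromosomes and differed in what followed. On chromosome 18 at 78916449 to 78916941 the score was 124 at day 0 and 1681 at day 9, a rise of 95.6 percentile points, and it was 1516 at day 28. On chromosome 7 at 99976546 to 99977056 the scores were 120, 1528 and 1959 at days 0, 9 and 28. On chromosome 4 at 117665354 to 117665969 they were 185, 1565 and 2634. At these 3 sites the day 28 score was above the median of that list (662). The regions on chromosome 11 (25000023 to 25000353) and chromosome 1 (12634654 to 12635052) had day 9 scores of 1444 and 1492 and day 28 scores of 105 and 122, under the lower quartile of 213. Their day 9 peaks were narrow, at 331 and 399 bp, whereas those of the other 3 were 493 to 616 bp wide. The site on chromosome 4 starts at 117665354, near the day 9 only region named above, which starts at 117613653.

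The largest falls in rank are given next, and falls of that size can begin only among the highest unsaturated day 0 scores. On chromosome 14 at 28435182 to 28435777 the score was 2937.5 at day 0 and 106 at day 9, a fall of 94.7 points (difference -94.7), and it was 229 at day 28. On chromosome 3 at 67862945 to 67863516 the scores at days 0, 9 and 28 were 3045, 118 and 723. On chromosome 4 at 17778894 to 17779781 they were 2930.3, 118 and 442, and at 137772147 to 137773851 they were 2304, 100.2 and 703. The region on chromosome 13 at 13023579 to 13024782 scored 2525 and 105 and had no day 28 peak. The day 0 peaks of these 5 sites were 572 to 1705 bp wide, and the day 9 peaks 327 to 1001 bp.

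The widest kept regions were of a different order of size from ordinary CTCF peaks. A region of 15705 bp on chromosome 11 (3022437 to 3038141) held 1 peak at each day, with a day 0 score of 370 and a day 9 score of 2888. Its day 9 peak was 1793 bp wide, and no day 28 peak overlapped it. The others lay side by side on chromosome 6, at 47687010 to 47697208 (10199 bp) and 47697229 to 47706442 (9214 bp), and were saturated at days 0, 9 and 28. Input reads were not analysed here, so enrichment over input at these places was not checked.

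Chromosomes differed in how much of the proliferation landscape was found again. The kept share was highest on chromosome 17 (64.6%, 62.9 to 66.3), chromosome 1 (64.5%, 62.96 to 65.9) and chromosome 14 (61.5%, 59.5 to 63.4). The lowest shares were those of chromosome 19 (52.2%, 50.2 to 54.2), chromosome 12 (53.4%, 51.6 to 55.3) and chromosome 5 (54.0%, 52.6 to 55.4). Lists of equal size brought the shares closer together: they ran from 71.6% on chromosome 14 to 75.7% on chromosome 15, and chromosome 17 then stood at 73.2% and chromosome 19 at 71.9%. The order of chromosomes by kept share thus changed with list length.

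The balance of the classes by chromosome was held better than the kept share. The day 9 only share was highest on chromosomes 17 (4.70%, 4.01 to 5.49), 14 (4.08%, 3.35 to 4.96) and 1 (3.93%, 3.37 to 4.58). It was lowest on chromosomes 19 (1.33%, 0.941 to 1.87), 2 (2.09%, 1.76 to 2.49) and 4 (2.09%, 1.71 to 2.56). At equal list size chromosomes 17, 1 and 14 had 17.2%, 16.4% and 16.3% of their regions at day 9 only, and 9.60%, 8.80% and 12.1% at day 0 only. Chromosomes 19 and 2 had 7.49% and 8.91% at day 9 only, and 20.6% and 17.6% at day 0 only. Weak day 0 peaks, those scoring under 300, were found again most often on chromosomes 17 (25.9%, 23.2 to 28.7), 1 (24.6%, 22.3 to 27.0) and 14 (24.5%, 21.6 to 27.7). On chromosome 19 the share was 9.76% (7.95 to 11.9) and on chromosome 2 it was 11.1% (9.78 to 12.5).

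Kept sites, which include the weak day 0 peaks found again, shifted in rank on the same chromosomes. The median difference of day 9 minus day 0 percentile was 7.28 points on chromosome 14, 6.23 on chromosome 1 and 3.28 on chromosome 17. It was -8.72 on chromosome 19 and -5.17 on chromosome 2. With saturated regions counted as ties, the values of the last pair were -4.19 and -2.59. Most bins of these chromosomes had the sign of the chromosome median. That largely follows from taking both over the same regions, so the bin counts are no separate support. Of the 4 Mb bins with at least 20 ranked regions, 31 of 34 on chromosome 1 and 18 of 20 on chromosome 17 had a median above 0. On chromosome 2, 33 of 40 bins lay under 0, as did 11 of 13 on chromosome 19. On chromosome 14, 17 of 21 bins lay above 0. Its 4 bins under 0 all lay between 8 and 44 Mb, whereas the bins from 56 Mb on had medians of 8.16 to 18.2 points, so the shift there was larger in the distal part.

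Over all 480 such bins, which held 24872 ranked regions, medians ran from -16.1 to 18.2 points, with quartiles of -3.34 and 3.43. Medians over 10 points were reached by 18 bins, and 17 bins stood under -10. The highest bins lay on chromosome 14 at 72 to 76 Mb (18.2 points, 33 regions), 100 to 104 Mb (15.0 points, 33 regions) and 56 to 60 Mb (14.6 points, 56 regions). Chromosome 16 held the next ones, at 72 to 76 Mb (14.6 points, 23 regions) and 84 to 88 Mb (13.2 points, 28 regions). The lowest bins lay on chromosome 19 at 4 to 8 Mb (-16.1 points, 122 regions), chromosome 2 at 156 to 160 Mb (-15.4, 64 regions), chromosome 9 at 28 to 32 Mb (-15.3, 26 regions), chromosome 12 at 20 to 24 Mb (-14.9, 49 regions) and chromosome 19 at 0 to 4 Mb (-14.7, 28 regions). In the bin of chromosome 19 at 4 to 8 Mb, 21.3% of ranked regions stood higher at day 9, and 10 of 161 weak day 0 peaks (6.21%) were found again.

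Medians of neighbouring bins went together to a degree. All pairs lie within a chromosome and some chromosomes were shifted as a whole, so likeness apart from those shifts was not tested. Over 389 pairs of adjacent bins the medians had the same sign in 239 (61.4%), with a Spearman's rho of 0.37. Bins where kept sites rose in rank tended to be those where more weak day 0 peaks were found again: rho was 0.57 over the 428 bins with at least 20 weak day 0 peaks. In those bins the share found again ran from 0% to 51.9%, with a median of 15.4% (quartiles 11.5 and 20.9). Both measures come from the same libraries and share members. A weak day 0 peak found again is in most cases itself a ranked region, with a low day 0 percentile and little room to fall. The rho is therefore partly fixed in advance. Base composition and copy number of the bins, which the measures may share, were not examined.

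**Figure D4:**
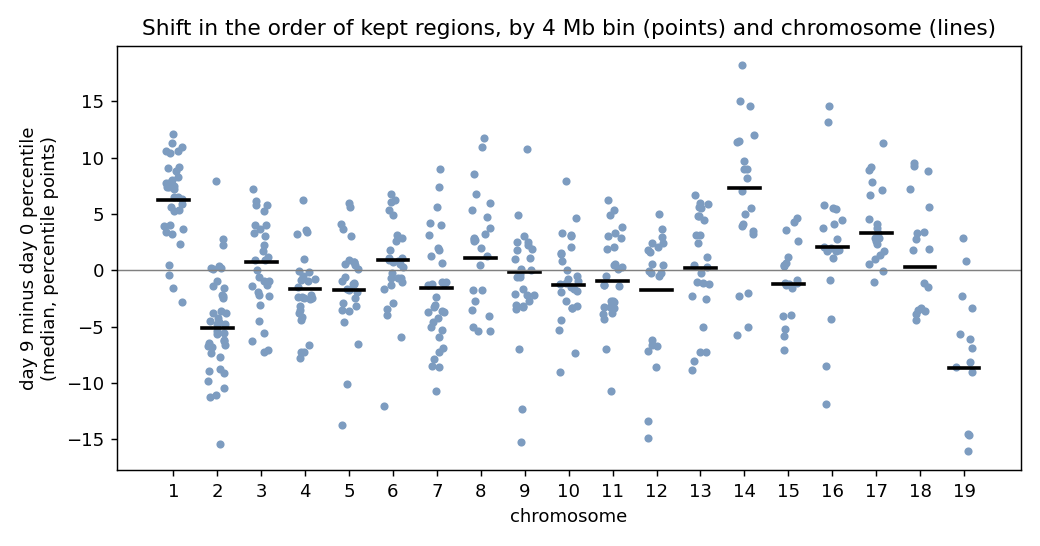
Median difference of day 9 minus day 0 percentile (vertical axis, percentile points) of kept regions on chromosomes 1 to 19 (horizontal axis); points are 4 Mb bins with at least 20 ranked regions, spread sideways at random, and lines are chromosome medians. Chromosomes 1, 14 and 17 lie mostly above 0, chromosomes 2 and 19 mostly under it, and single bins span -16.1 to 18.2.

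Regions of 1 list were interspersed with kept ones. A day 0 only region lay a median of 11844 bp from the nearest kept region (quartiles 3718 and 34259 bp), and a kept region lay 8808 bp from the nearest other kept region (2838 and 23000 bp). Day 9 only regions lay 10288 bp from the nearest kept region and 6751 bp from the nearest day 0 peak of any kind. The last value was 10421 bp at equal list size, where both the day 0 list and the regions counted as day 9 only differ. Near misses were uncommon: 1402 day 0 only regions (5.22%) had a day 9 peak within 500 bp, and 127 day 9 only regions (6.56%) had a day 0 peak within that distance.

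Runs of consecutive regions of 1 class were longest among kept sites, which were also the largest class. Of all regions 57.5% were kept, 39.6% day 0 only and 2.86% day 9 only. The run lengths to be had from these shares alone were not computed. Runs of at least 5 kept regions in a row numbered 2015 and held 34.35% of kept regions, and the longest held 33. Among day 0 only regions there were 593 such runs, which held 14.3% of them. Of the 1935 day 9 only regions, 1618 stood alone, and no run was longer than 4. The longest run of kept regions lay on chromosome 4 at 60036972 to 61519818, where the median day 0 score was saturated and all 33 regions held a day 28 peak. On chromosome 7, at 149667017 to 150081280, 21 kept regions followed each other in 0.414 Mb with a median day 0 score of 1997, and all 21 held a day 28 peak. The longest day 0 only runs of ordinary peaks lay on chromosome 5, with 17 regions each at 126454410 to 127054581 and 128195669 to 128849927. In these, 0 and 1 regions held a day 28 peak. The runs were picked for their length after the values were seen.

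The day 28 list, which defined no class, set the classes apart. A day 28 peak overlapped 93.6% of kept regions (93.3 to 93.8), 55.4% of day 9 only regions (53.2 to 57.6) and 20.3% of day 0 only regions (19.9 to 20.8). At equal size of all 3 lists the shares were 94.6%, 58.3% and 30.9%. Sites listed at matrix deposition and not before were more often listed at mineralization than sites listed at proliferation and not at matrix deposition. The day 28 list held 44650 peaks on chromosomes 1 to 19, nearer the 41808 of day 9 than the 65943 of day 0. A day 0 only region is one that a list of about that length lacked. Apart from the lists of equal size, the part of list length in this order was not tested. The order was the same within classes of score, but the scores come from different lists and like classes are not of like strength. In kept regions a day 9 score of 200 to under 300 went with a median day 0 score of 747. That value falls in the day 0 class of 500 to under 1000. At a score of 200 to under 300, 83.2% of day 9 only regions (78.3 to 87.1) and 20.8% of day 0 only regions (19.7 to 21.9) held a day 28 peak. At 500 to under 1000 the shares were 75.7% (64.5 to 84.2) and 47.2% (45.2 to 49.2). At 1000 to under 2000 the intervals overlapped, with 11 of 16 day 9 only regions (68.8%, 44.4 to 85.8) and 58.4% of day 0 only regions (53.6 to 63.0).

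Kept regions of like score were found at day 28 more often than regions of 1 list. At a day 0 score of 500 to under 1000, 92.2% of kept regions (91.6 to 92.8) held a day 28 peak, against the 47.2% of day 0 only regions. At 1000 to under 2000 the shares were 98.5% (98.2 to 98.8) and 58.4% (53.6 to 63.0). Of the 418 day 0 only regions in that class, 244 were listed again at day 28 after being unlisted at day 9. By day 9 score the gap was smaller at 200 to under 300, with 95.9% of kept (95.2 to 96.4) and 83.2% of day 9 only regions. In the weakest class of day 9 score it was 67.5% (66.3 to 68.8) against 40.2% (37.3 to 43.2). Among day 9 only regions the share was lower at 500 to under 1000 (75.7%) than at 300 to under 500 (85.8%, 78.7 to 90.8), with overlapping intervals. Leaving out narrow peaks, a split made after these values were seen, it was 96.4% of 55 regions (87.7 to 98.997) and 89.8% of 118 (83.1 to 94.1). None of the 15 narrow regions at 500 to under 1000 held a day 28 peak, so leaving them out must raise that share. Narrow day 9 only peaks also occurred under a score of 500, where 28 of 82 held a day 28 peak (34.1%, 24.8 to 44.9), against 55.4% of the other 1766 (53.1 to 57.7).

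**Figure D5:**
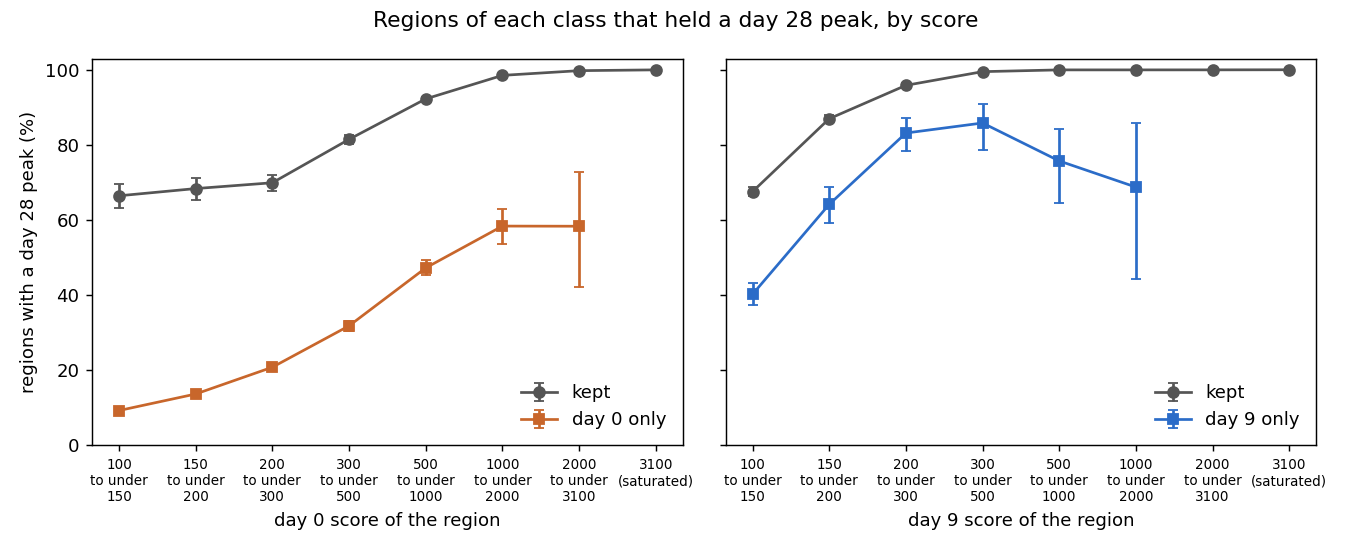
Share of regions with a day 28 peak (vertical axis, percent) by class of score (horizontal axis), for kept and day 0 only regions by day 0 score (left) and for kept and day 9 only regions by day 9 score (right); bars are 95% Wilson intervals, and classes with under 10 regions are left out. Kept regions lie above regions of 1 list in each class shown. Day 9 only regions (40.2% in the weakest class) lie above day 0 only regions (9.25%) at the low scores, though like classes of the days are not of like strength.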

How the data were processed

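Chromatin immunoprecipitation with sequencing (inserts of 200 ± 50 bp, 36 bases read) gave 1 deposited peak list per time point. Reads were called with CASAVA 1.6, and the tools named beside it are Bowtie 0.12.8 and MACS 1.4.1, on build mm9, per the submitters' processing notes. How the authors combined the 2 repeats and used the input is not given in the sources used here. The deposited score of each peak was capped at 3100.

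Lists were restricted to chromosomes 1 to 19 and merged by an overlap of at least 1 bp with Python 3.11.15, numpy 2.4.6 and scipy 1.17.1. The merging and ranking code was tested on made-up lists with known classes. Equal list size took the 42774 highest scores of each whole list before that restriction. Regions named were the highest-scoring of each class, the largest changes of percentile, the widest regions, and the extreme bins and chromosomes. Others are said to be picked after their values were seen. Members, classes of score and the limit of 300 for weak peaks were chosen with earlier results of these data known. Planned gene lists and the CTCF motif were not used, since no mm9 genome or annotation was at hand. Shares carry 95% Wilson intervals. Reads are not independent of amplification, and no depth is known, so precision is that of the counts of peaks alone.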

Additional observations from a re-analysis of the deposited data

How the results depend on the processing

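List length moved 14 of the 19 values it was tried on. At equal list size, day 0 only regions numbered 6688, day 9 only regions 5907, the kept share was 73.5%, and 83.98% of day 0 and 85.9% of day 9 peaks were found again. With equal size set within chromosomes 1 to 19 these values were 6717, 5887, 73.5%, 83.9% and 85.9%. Joining peaks up to 500 bp apart gave a kept share of 59.0%, with 62.0% of day 0 and 95.7% of day 9 peaks found again. A score of at least 200 in each list gave 904 day 9 only regions, a kept share of 57.9% and 97.1% of day 9 peaks found again. Asking that peaks share 50% or more of the shorter one left 7 shares and correlations within their interval and the 3 region counts within 1.5 times. Counting saturated regions as ties moved the rho of ranks from 0.71 to 0.86 and the shifts of chromosomes 19 and 2 from -8.72 and -5.17 to -4.19 and -2.59. Only the chromosome shifts, the correlations and the width difference could change sign, and none did. Counts, shares and distances cannot be negative. Weak peaks limited to scores under 200, a setting chosen after seeing the data, gave a rho of 0.49 between the shift of a bin and its weak day 0 peaks found again. These measures share members there too. Bins of 10 Mb gave a rho of 0.49 between neighbours. No paired analysis was possible because each stage is 1 list. No library could be left out for the same reason, and depth is unknown.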

Other observations

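Day 0 peaks of 500 to under 1000 bp were found again more often than wider or narrower ones of like score. At day 0 scores of 300 to under 500, 28.3% of 650 peaks of 1000 to under 1500 bp (24.98 to 31.9, 95% Wilson interval) overlapped a day 9 peak, against 48.98% of 3283 peaks of 500 to under 1000 bp (47.3 to 50.7). At scores of 500 to under 1000 the shares were 66.9% (64.0 to 69.7) and 80.9% (79.8 to 82.0). At 1500 bp or more they were 32.95% of 88 peaks and 61.2% of 276 peaks. Peaks under 500 bp were found again in 45.6% (44.1 to 47.2) at the lower and 69.7% (68.1 to 71.2) at the higher scores, so at the higher scores they overlapped the interval of peaks of 1000 to under 1500 bp. A day 28 peak overlapped 29.5% of the 88 widest peaks and 79.3% of the 276. The shares were 59.5% and 86.1% for peaks of 500 to under 1000 bp, and 53.2% and 74.1% for peaks under 500 bp.

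A dense group of wide peaks lay on chromosome 8 at 126084318 to 126131780, where 26 day 0 only regions followed each other in 0.0475 Mb, with 1 region per 1.83 kb. Their median width was 1554 bp, their median day 0 score 321 and their highest score 720. None of the 26 held a day 28 peak. The day 9 list had 15 unlisted peak numbers in the interval that holds them. The group was picked as the longest run of day 0 only regions after the values were seen. Input reads over it were not analysed here.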
